A study of Mus musculus with 8 samples.

Results

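Fibroblast growth factor (FGF) signalling was examined in brown adipose tissue (BAT), the heat-producing fat depot of rodents, through 5 genes: the ligand genes Fgf1 and Fgf21, the receptor tyrosine kinase genes Fgfr1 and Fgfr2, and Klb, which encodes the co-receptor beta-Klotho. The 5 genes were taken by symbol out of 31053 genes in the count table. They were chosen with the difference between the genotypes already known, so their levels are given as a description and no test is attached to them. The study sequenced bulk RNA from the BAT of 4 wild-type (WT) and 4 db/db mice aged 8 weeks, to learn how the transcriptome of this tissue differs in obesity. The labels give C57BL6/J as the strain of both groups. The db/db mice lack a working leptin receptor and are a common model of obesity with type 2 diabetes. The study's methods name them B6.BKS(D)-Leprdb/J, but the stock number in its resource list appears to belong to another line, so their strain background could not be settled and may differ from that of WT. All mice were males and tissue was harvested after fasting. The db/db mice came from the Jackson Laboratory, while the study names Charles River in one place and the Jackson Laboratory in another for WT mice. If strain background or supplier differed, it cannot be told apart from genotype. Each library stands for a mouse of its own, as the group sizes stated by the study imply, so that the errors below measure the spread between mice. Whether mice of a group shared a litter or cage is not stated in the sources used here.

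FGF21 is an endocrine FGF that needs beta-Klotho beside FGFR1 to act on adipocytes, and it is known in BAT as a hormone that promotes heat production. FGF1 is a paracrine FGF that binds heparan sulfate and activates all FGF receptors without a klotho protein, and in white fat its gene is a target of the nuclear receptor PPARγ. Bound receptors recruit the adaptor FRS2 and start the RAS and ERK kinase cascade, which is held back by Sprouty proteins and by phosphatases such as DUSP6.

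Fgf1 was 7.26-fold higher in db/db than in WT BAT, while Klb was 2.13-fold higher in WT. Fgfr2 was lower in every db/db library than in every WT library, with a ratio of the means of 12.2 that rests on a db/db mean under the detection floor, most of it from 1 library. Fgfr1 was 1.49-fold higher in db/db, with overlapping genotypes. Fgf21 was at or near 0 counts throughout. Levels are given in CPM, with library sizes counted on filtered genes and scaled by TMM factors. Among 9264 genes that passed the filter on low counts, 27.7% passed an adjusted p of 0.05 (edgeR), 15.8% higher and 11.9% lower in db/db, and the median log2 fold change was 0.01.

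Libraries held 2374079 to 2615009 counts in WT and 2382722 to 3240074 in db/db, and the floor taken as the smallest detectable level, 3 counts, lay between 0.902 and 1.33 CPM. Lepr, the mutated gene, had 0 counts in all 8 libraries, so its transcript gave no check of the genotype. One label names the stromal vascular fraction as the cell type, but adipocyte transcripts were abundant, with Adipoq between 1245 and 2112 CPM and Ucp1, the uncoupling protein of brown adipocytes, between 1056 and 2754 CPM. The 14 markers of skeletal muscle, a tissue that borders this depot, all passed the test as higher in db/db (edgeR), with a summed level of 448.8 to 1579 CPM in WT and 2326 to 11580 CPM in db/db. The highest sum was in db/db replicate 1.

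The promoters of Fgf21 and Klb, the hormone and its co-receptor, are shown because one transcript was scarcely detected and the other was lower in db/db. The sequences are from RefSeq on GRCm38.p6, whose table held an entry for 3 of the 5 genes, namely Klb, Fgfr2 and Fgf21. The first runs up to the RefSeq start of Fgf21 at chr7:45615491-45615740 on the minus strand, and the second lies at chr5:65348161-65348313 on the plus strand and stops before the annotated start of Klb. Capitals mark matches of the motifs searched.
Fgf21: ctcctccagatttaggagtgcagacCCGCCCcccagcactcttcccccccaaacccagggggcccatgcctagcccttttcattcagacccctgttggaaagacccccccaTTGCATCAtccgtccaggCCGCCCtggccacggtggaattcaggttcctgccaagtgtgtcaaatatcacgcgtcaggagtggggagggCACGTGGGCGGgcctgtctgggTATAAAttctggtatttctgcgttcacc
Klb: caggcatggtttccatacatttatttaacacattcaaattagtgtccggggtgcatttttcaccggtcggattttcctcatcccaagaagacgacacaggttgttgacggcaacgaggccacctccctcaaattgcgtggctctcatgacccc

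The motifs were searched on both strands in the 250 bases before each RefSeq start. The Fgf21 window held TATAAA, the TATA box, at position -28 from the start and CACGTG, the E-box, at -50. TTGCATCA, the composite element of ATF4 and C/EBP factors, stood at -139. GGGCGG, the GC box, occurred at -225 and -121 on the opposite strand and at -45, where it shares bases with the end of the E-box. These motifs were present in 12.4% (TATAAA), 6.02% (CACGTG), 0.791% (TTGCATCA) and 32.7% (GGGCGG) of 32851 promoter windows of the same length. AGGTCA, the nuclear receptor hexamer (14.0% of windows), TGACGTCA, the cAMP response element (1.55%), CCAAT (33.8%) and TGANTCA, the AP-1 site (6.75%), had no match in the Fgf21 window, and none of the 8 motifs matched in those of Klb and Fgfr2. A match is a run of letters and says nothing about binding.

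Among the ligands, Fgf1 (ENSMUSG00000036585, chromosome 18, 38838673 to 38929472, minus strand, GRCm38) measured 7.28, 4.22, 1.88 and 4.24 CPM in WT replicates 1 to 4. In db/db replicates 1 to 4 it measured 35.5, 27.4, 32.8 and 32.4 CPM. The lowest db/db library lay above the highest WT library, and the db/db libraries were close to each other. The means were 4.41 ± 2.22 CPM in WT and 32.0 ± 3.39 CPM in db/db (SD, n = 4 each), with a log2 fold change of 2.86 (SE 0.29). WT counts were low, at 5 to 18, against 74 to 118 in db/db. No exon of another gene overlaps Fgf1.

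Transcripts of adipose stroma and macrophages were also higher in db/db. Of 10 stromal markers, 8 passed the test (edgeR, adjusted over all genes) as higher and 0 as lower. The 8 include Dpp4, which had to be higher since it passed the filter through the db/db libraries alone. The sum of the 10 was 583.3 to 680.3 CPM in WT and 1033 to 2139 CPM in db/db. All 8 macrophage markers were higher, with sums of 43.7 to 80.4 CPM in WT and 330.7 to 620.3 CPM in db/db. They include Trem2, which passed the filter through the db/db libraries alone and so had to be higher there. In both lists no marker was at 0 in all libraries. Smooth muscle markers summed to 178.9 to 222 CPM in WT and 302.4 to 404.3 CPM in db/db. Schwann cell markers summed to 98.45 to 173 CPM in WT and 326.1 to 536.4 CPM in db/db. The white adipocyte and skeletal muscle sums were higher in db/db too. In bulk tissue, a change in the number of cells of a type and a change in RNA per cell cannot be told apart. The part of any of these cells in the Fgf1 difference was not tested.

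Fgf21 (ENSMUSG00000030827, chromosome 7, 45613886 to 45615490, minus strand) had 0 counts in 7 of the 8 libraries and 1 count, or 0.372 CPM, in db/db replicate 4. It failed the filter and no fold is given. At this depth its transcript was not detectable above the floor of 0.902 to 1.33 CPM in either genotype, and circulating FGF21, which comes largely from the liver, was not measured by this assay.

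Among the receptors, Fgfr1 (ENSMUSG00000031565, chromosome 8, 25513654 to 25575718, plus strand) encodes the main FGF receptor of adipocytes. It measured 31.6, 29.5, 50.0 and 32.3 CPM in WT replicates 1 to 4 and 55.1, 56.9, 71.8 and 29.8 CPM in db/db replicates 1 to 4. Replicate 3 was the highest library of each genotype, and db/db replicate 4 lay within the WT range. The means were 35.8 ± 9.50 and 53.4 ± 17.4 CPM (SD, n = 4 each), with a log2 fold change of 0.57 (SE 0.23). With the summed skeletal muscle level as a covariate the log2 fold change was 0.21 (SE 0.46). The antisense gene Gm16159 shares 1.66% of the exon bases of Fgfr1, so that a small part of its count is uncertain.

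Fgfr2 (ENSMUSG00000030849, chromosome 7, minus strand), a receptor whose splice forms serve epithelium and mesenchyme, measured 5.26, 6.75, 12.8 and 12.3 CPM in WT replicates 1 to 4. In db/db it was at 0 in replicates 1 and 2, at 0.443 CPM in replicate 3 and at 2.60 CPM in replicate 4. All WT libraries lay above all db/db libraries, of which 3 were under the floor. The counts were 13, 16, 34 and 29 in WT and 0, 0, 1 and 7 in db/db, so that replicate 4 held most of the db/db counts. The means were 9.27 ± 3.83 and 0.762 ± 1.25 CPM (SD, n = 4 each). Fgfr2 passed the filter through the WT libraries alone, all of which reached the cutoff of 3.97 CPM, while no db/db library did. Its log2 fold change of -3.62 (SE 0.68) depended on the prior count, and was -2.77 with a prior count of 2. Without db/db replicate 4 it was -5.84, and WT was then at least 8.73-fold above the floor of 3 counts per library, averaged over the remaining db/db libraries.

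The annotated span of Fgfr2, 130162451 to 133123350, covers 69 other genes, because 1 of its 27 transcripts reaches upstream of the RefSeq start at 130266808. That transcript adds 314 of the 10328 exon bases, and 3.04% of the exon bases are shared with Ctbp2 on the same strand, which leaves the count uncertain. Epithelial cells, a common site of Fgfr2 expression, left almost no trace: 4 of 6 markers (Krt8, Krt18, Krt14 and Krt5) were at 0 in all libraries, and the summed level reached at most 0.424 CPM in WT and 0.903 CPM in db/db.

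The co-receptor gene Klb (ENSMUSG00000029195, chromosome 5, 65348314 to 65384007, plus strand, no overlapping gene) measured 25.1, 15.6, 30.1 and 27.2 CPM in WT replicates 1 to 4. It measured 12.3, 14.3, 6.21 and 13.0 CPM in db/db replicates 1 to 4. The genotypes did not overlap, though WT replicate 2 and db/db replicate 2 were separated by only a small gap. The means were 24.5 ± 6.25 CPM in WT and 11.5 ± 3.60 CPM in db/db (SD, n = 4 each), with a log2 fold change of -1.07 (SE 0.27). With the summed skeletal muscle level as a covariate this log2 fold change was -0.90 (SE 0.49). Klb and Fgfr2 were lower without overlap, as were 12.7% of all genes tested, and Fgf1 was higher without overlap, as were 15.3%. These counts repeat the contrast by which the genes were chosen.

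**Figure D1:**
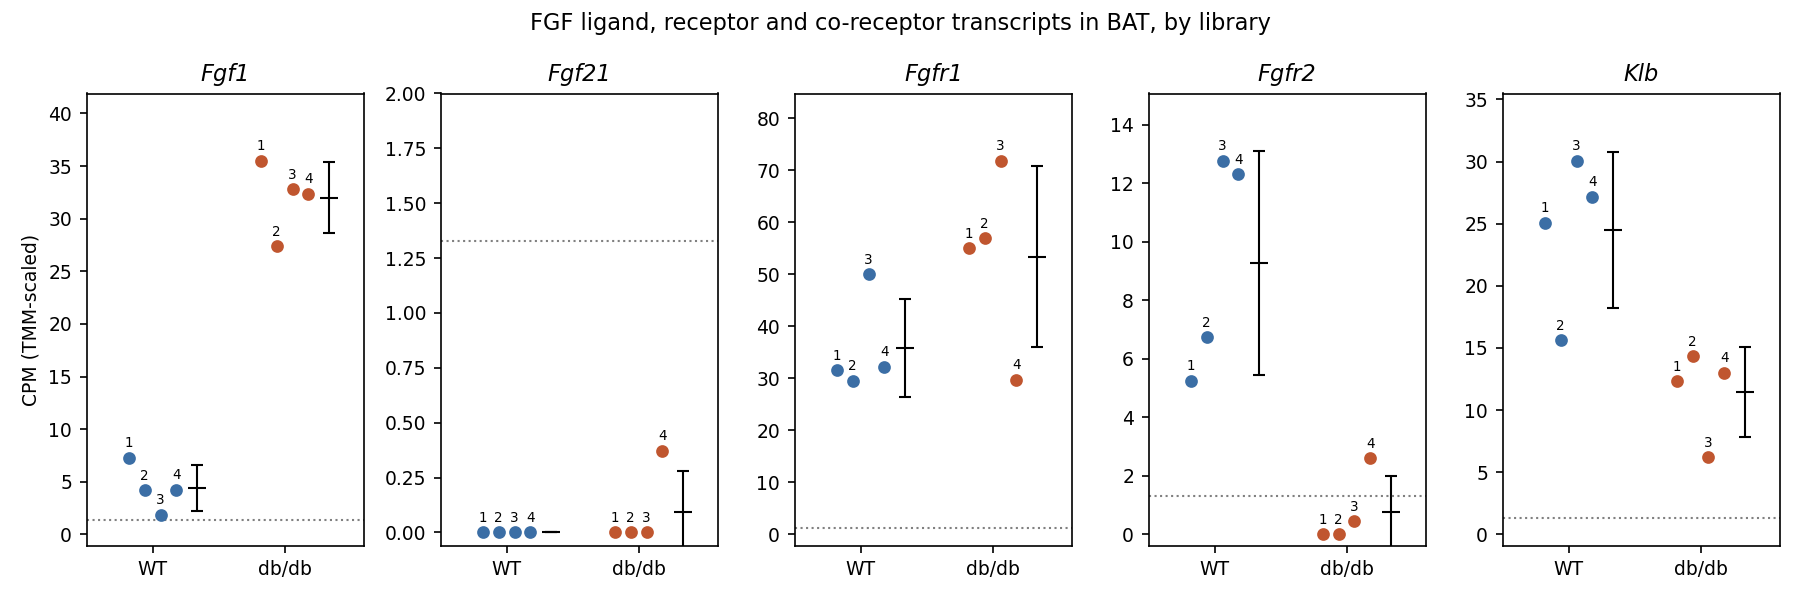
Level of each of the 5 genes in BAT (vertical axes, TMM-scaled CPM, a separate scale in each panel) in the 4 WT (blue) and 4 db/db (orange) libraries, numbered by replicate, with the mean and SD as black bars and the highest floor of 3 counts, 1.33 CPM, as a dotted line. Fgf1 is higher and Fgfr2 and Klb are lower in every db/db library than in every WT library, Fgfr1 overlaps, and Fgf21 stays under the floor.

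Adipocytes are the cells in which beta-Klotho is known to act in fat, and the marker lists describe them in part. The study also lists Fabp4 and Lpl, which are among the general adipocyte markers, as genes high in lipid-associated macrophages. The summed level of 7 general adipocyte markers overlapped between the genotypes, at 16460 to 24320 CPM in WT and 20770 to 25450 CPM in db/db. In this list 2 markers were higher (Plin1 and Fabp4), 1 was lower (Lpl) and none was at 0 in all libraries. Of 9 brown adipocyte markers 7 could be tested (edgeR), of which 5 were lower and 0 higher, and their sum was 8954 to 10620 CPM in WT and 3782 to 6825 CPM in db/db. Of 7 white adipocyte markers 4 could be tested, of which 3 were higher, while Tcf21 and Hoxc10 were at 0 in all libraries, and the sum was 98.3 to 271.7 CPM in WT and 1248 to 1371 CPM in db/db. The part of this shift in the levels of Klb, Fgfr2 and Fgf1 was not tested.

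**Figure D2:**
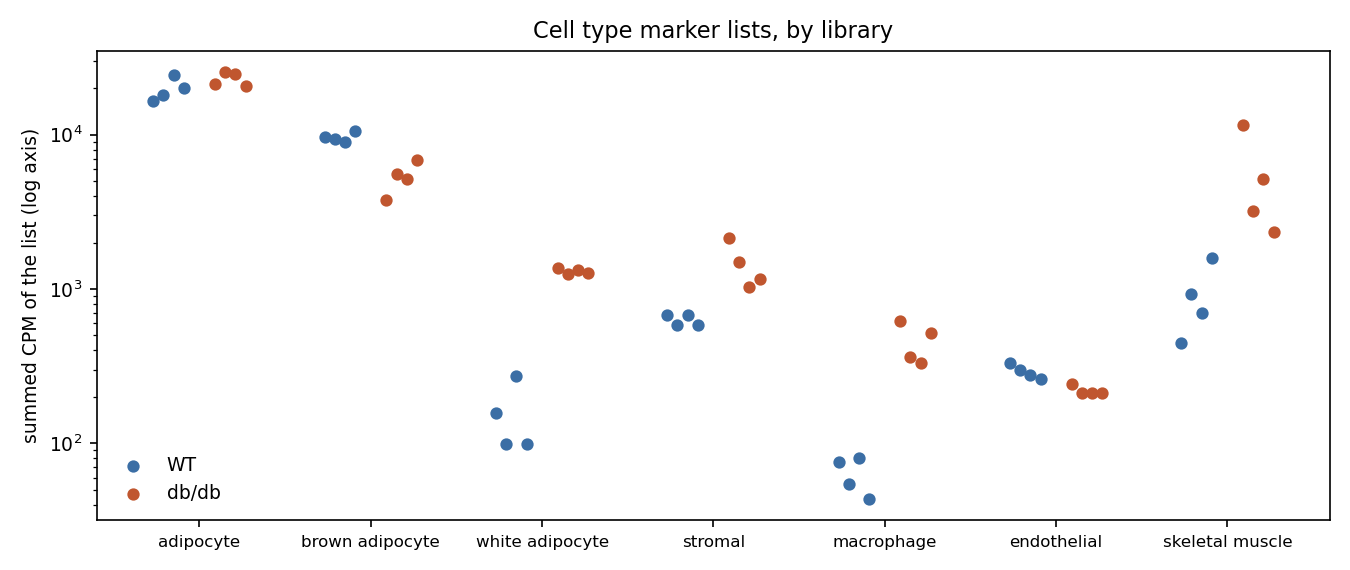
Summed CPM of cell type marker lists (vertical axis, log scale) in the 4 WT (blue) and 4 db/db (orange) libraries, 1 point a library. The general adipocyte sum overlaps between the genotypes, the brown adipocyte and endothelial sums are lower in db/db, and the white adipocyte, stromal, macrophage and skeletal muscle sums are higher.

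Ratios of raw counts within a library do not depend on its scaling. Per 100 Fgfr1 counts, Klb stood at 79.5, 52.9, 60.2 and 84.2 in WT replicates 1 to 4 and at 22.4, 25.1, 8.64 and 43.8 in db/db replicates 1 to 4. Co-receptor transcript was thus scarcer relative to receptor transcript in every db/db library, with means of 69.2 ± 15.1 and 25.0 ± 14.4 (SD, n = 4 each). In bulk tissue the ratio does not show whether both transcripts came from the same cells. Per 10000 counts of the 7 adipocyte markers, Klb stood at 15.2, 8.67, 12.4 and 13.5 in WT and at 5.79, 5.63, 2.49 and 6.27 in db/db, again without overlap. Fgf1 per 100 Fgfr1 counts was 13.6 ± 7.90 in WT and 66.8 ± 29.3 in db/db, and Fgfr2 was 25.8 ± 9.03 and 2.34 ± 4.28 (SD, n = 4 each). In db/db replicate 4, which had the lowest Fgfr1 level of its group, these ratios were highest, at 108.8 for Fgf1 and 8.75 for Fgfr2.

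**Figure D3:**
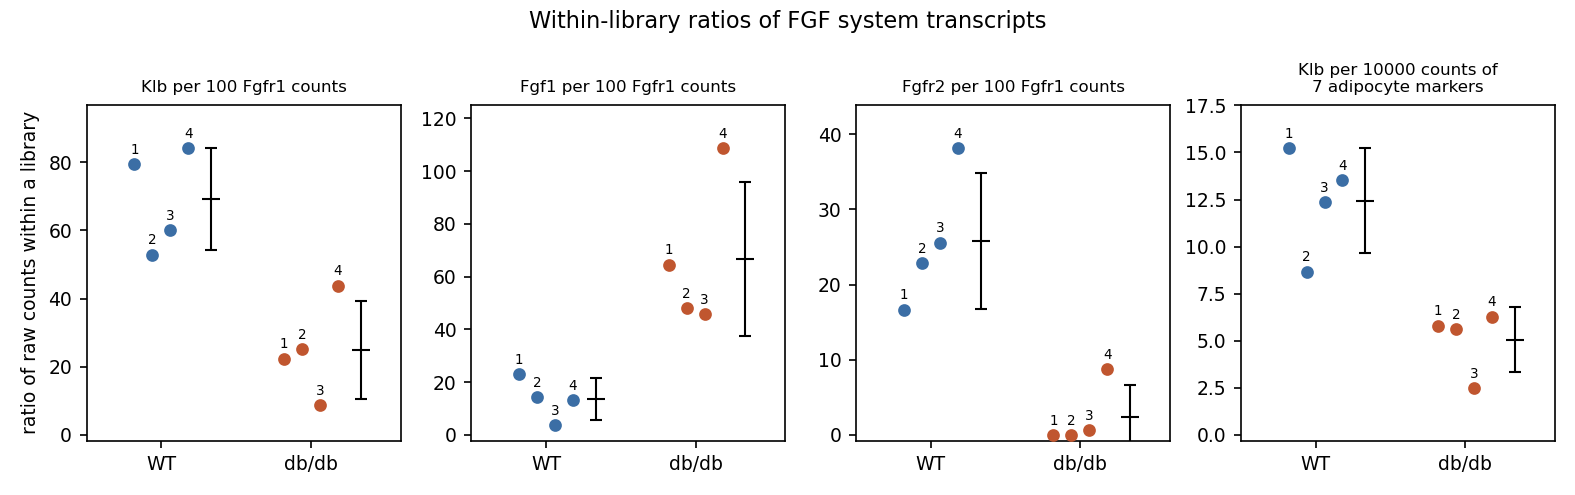
Raw counts of Klb, Fgf1 and Fgfr2 per 100 Fgfr1 counts and of Klb per 10000 counts of 7 adipocyte markers (vertical axes) in the 4 WT (blue) and 4 db/db (orange) libraries, numbered by replicate, with mean and SD as black bars. The genotypes are separate in all 4 panels, and db/db replicate 4 is the highest db/db library in each.

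Levels of different genes were compared as CPM per kilobase of exon. Whether reads cover transcripts evenly in this library type is not stated in the sources used here, so that the order between genes is approximate. In WT BAT, Fgfr1 stood at 3.63 ± 0.962 and Fgfr2 at 0.898 ± 0.371 CPM per kilobase, with no overlap between them. Fgfr3 failed the filter, with 0 to 1 counts in WT, under the floor, and 1 to 7 in db/db. Its count is also uncertain since 13.9% of its exon bases are shared with an antisense gene. It was at 0.0420 ± 0.0281 in WT, and Fgfr4 had 0 counts in all 8 libraries. In db/db the levels were 5.41 ± 1.77 for Fgfr1, 0.0738 ± 0.121 for Fgfr2 and 0.161 ± 0.116 for Fgfr3 (SD, n = 4 each), so that Fgfr1 led in both genotypes and Fgfr2 and Fgfr3 overlapped in db/db. Klb, at 5.38 ± 1.38 in WT and 2.52 ± 0.792 in db/db, had a range that overlapped that of Fgfr1 in both genotypes. Within single libraries, however, Klb stood above Fgfr1 in every WT library and below it in every db/db library. The gap was small in WT replicate 2 and in db/db replicate 4. In WT, Klb ran from 3.43 to 6.61 and Fgfr1 from 2.99 to 5.06, and in db/db Klb ran from 1.36 to 3.15 and Fgfr1 from 3.01 to 7.27. Kl, the klotho gene of the kidney, had 0 counts in all libraries.

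The genes whose pattern was most like that of each member were found by the mean absolute difference of log2 CPM, centred on the WT mean, over the 8 samples, among genes of at least 10 CPM on average. For Klb these were Gosr2 (0.153), Mkrn2 (0.182) and Osbpl9 (0.239) of 6698 genes. The count of Mkrn2 is uncertain. Gosr2, a SNARE protein gene of the Golgi, averaged 19.1 ± 2.65 and 9.32 ± 2.57 CPM (SD, n = 4 each). For Fgf1 they were Pcolce (0.123), which encodes an enhancer of procollagen processing, Tmem176b (0.168) and Ccdc3 (0.179), and Pcolce averaged 17.4 ± 6.77 CPM in WT and 109.2 ± 13.6 CPM in db/db. For Fgfr1 they were Lrp1 (0.121), an endocytic receptor gene, Enpp2 (0.152), which encodes autotaxin, and 9530068E07Rik (0.153). Fgfr2 had no close match, the nearest being Mycl (0.587), Gm17634 (0.601) and Slc27a2 (0.650), and Mycl averaged 20.1 ± 6.29 and 3.95 ± 1.43 CPM. These distances describe 2 groups of 4 libraries and say nothing of shared control.

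The other genes of the FGF system were taken from 7 lists of 101 genes, made by family and textbook role. Of these, 58 passed the filter, 13 were higher and 5 lower in db/db at an adjusted p of 0.05 over all genes (edgeR), and 40 did not pass. The share past the threshold was 31.0%, near the 27.7% of all genes tested, with a median log2 fold change of 0.13 against 0.01. The 13 include Fgf13 and Fap, which passed the filter through the db/db libraries alone and so had to be higher there, and 11 remain without them. With the summed skeletal muscle level as a covariate, 3 genes (Fgfrl1, Lctl and Gpc1) were higher beside Fgf13, and 1 was lower (Dusp4), against 410 of all genes. Every other call named below was lost under that covariate, which made the SEs of the called genes 1.54 to 2.02 times as large. The log2 fold changes were then 0.93 for Sulf2, 1.20 for Gpc3, 0.63 for Nras, 0.61 for Grb2 and -0.57 for Sos2. They were -1.40 for Dusp6 and -1.08 for Ppargc1a, farther from 0 than without the covariate, -0.85 for Ppara and -0.08 (SE 0.42) for Rps6ka3. Among genes that did not pass, log2 fold changes near 0 turned sign for Ndst1 without db/db replicate 3, for Cbl without db/db replicate 1, for Spred1 without WT replicate 3 and for Map2k2 without any 1 of 4 libraries.

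Of 20 other ligand genes, 2 passed the filter, and 9 had 0 counts in all libraries. Fgf13, which encodes an intracellular FGF homologue that binds sodium channels and not a secreted ligand, had 0, 1, 1 and 0 counts in WT and 37, 15, 29 and 16 in db/db. It was at least 7.11-fold higher in db/db, against a floor of 3 counts per library. Since it passed the filter through the db/db libraries alone, no p is given. Fgf2, the basic FGF, averaged 2.52 ± 1.67 CPM in WT and 5.52 ± 1.43 CPM in db/db and did not pass the test (edgeR log2 fold change 1.13 ± 0.48 SE, adjusted p = 0.0881). Its count is uncertain, since 13.2% of its exon bases are shared with other genes, among them the antisense gene Nudt6. Among ligands that failed the filter, Fgf10, a ligand of FGFR2, had 1 to 12 counts in WT and 7 to 23 in db/db, uncertain in so far as 2.67% of its exon bases are shared with an antisense gene, and Fgf9 had 1 to 7 and 5 to 12.

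Both further receptor and klotho genes that passed the filter were higher in db/db. Fgfrl1, which encodes an FGF receptor without a kinase domain, measured 60.3, 52.8, 60.5 and 85.3 CPM in WT and 140.5, 148.6, 173.3 and 168.5 CPM in db/db. The genotypes did not overlap (edgeR log2 fold change 1.28 ± 0.16 SE, adjusted p = 1.06e-05). At 23.3 ± 5.10 CPM per kilobase in WT and 56.7 ± 5.65 in db/db, Fgfrl1 stood above Fgfr1 in every library. Lctl, a klotho relative also called gamma-Klotho, measured 10.1, 10.1, 4.88 and 6.37 CPM in WT and 80.6, 83.7, 36.3 and 81.8 CPM in db/db (edgeR log2 fold change 3.17 ± 0.29 SE, adjusted p = 3.56e-07). It rose while Klb was lower, and db/db replicate 3 was the lowest db/db library for both. The antisense gene Zwilch shares 9.75% of the exon bases of Lctl, which leaves its count uncertain.

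Heparan sulfate holds FGF1 on its receptors. Of 23 genes for proteoglycans, sulfate chain enzymes and FGF-binding proteins 15 were tested, with a median log2 fold change of 0.49. In db/db, 5 (33.3%) were higher and 0 lower, against 15.8% and 11.9% of all genes tested. Gpc1, a glypican, measured 3.24, 11.0, 6.39 and 2.97 CPM in WT and 44.8, 38.5, 33.2 and 42.4 CPM in db/db (edgeR log2 fold change 2.75 ± 0.30 SE, adjusted p = 3.1e-06). The antisense gene Ankmy1 shares 18.9% of its exon bases, so that its count is uncertain. Sulf2, an extracellular enzyme that removes sulfate groups from the chains, rose from 33.6 ± 5.62 to 83.3 ± 13.9 CPM (SD, n = 4 each; edgeR adjusted p = 2.21e-05), and its count is uncertain in so far as Ncoa3 on the other strand shares 2.62% of its exon bases. Gpc3, a further glypican, rose by 1.54 on the log2 scale (edgeR adjusted p = 0.0289), a call lost without WT replicate 2 or 4 or db/db replicate 1 or 2 (adjusted p up to 0.615 over 16 alternatives). Sdc4, a syndecan (edgeR log2 fold change -0.47 ± 0.26 SE, adjusted p = 0.191), and Ndst1, a sulfotransferase (0.12, SE 0.19, edgeR adjusted p = 0.679), did not pass. Sdc4 passed as lower in 2 of 17 alternatives, among them without WT replicate 1, its lowest WT library (edgeR log2 fold change -0.75 ± 0.18 SE, adjusted p = 0.00537).

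Of 23 genes of the intracellular relay 21 were tested, with a median log2 fold change of 0.02. In db/db, 4 (19%) were higher and 1 (4.76%) lower, against 15.8% and 11.9% of all genes tested. Rps6ka3, an ERK-activated kinase, rose by 0.95, Nras, a RAS protein, by 0.87 and Grb2, an adaptor, by 0.60 on the log2 scale (edgeR adjusted p = 0.0135, 0.000685 and 0.0211). The Rps6ka3 call was lost without db/db replicate 1, the library with the most muscle transcript, and the Grb2 call without WT replicate 1 or 3 or db/db replicate 4. Sos2, an exchange factor that loads RAS, fell by 0.65 on the log2 scale (edgeR adjusted p = 0.0418) and kept its call in 9 of 17 alternatives, the lost ones including those without WT replicate 1 or 3 or db/db replicate 2, 3 or 4. Ptpn11, a phosphatase that docks on FRS2 and GAB1, and Map2k2, a kinase upstream of ERK, had log2 fold changes of 0.15 and 0.02 (SE 0.15 and 0.16) and did not pass.

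Downstream, 5 of 10 feedback inhibitors were tested, of which 0 were higher and 1 (20%) lower, against 11.9% lower among all genes tested. Dusp6, the ERK phosphatase induced by FGF signals, averaged 40.3 ± 18.4 CPM in WT and fell to 21.5 ± 5.95 CPM in db/db (SD, n = 4 each), with overlapping genotypes (edgeR log2 fold change -0.90 ± 0.29 SE, adjusted p = 0.0286). It kept its call in 10 of 17 alternatives, and lost it with limma-voom and without WT replicate 3 or 4 or db/db replicate 3 or 4. Spred1 and Cbl, which restrain RAS and receptor signalling, had log2 fold changes of 0.20 and 0.21 (SE 0.24 and 0.23) and did not pass. Of 11 transcripts that respond to ERK, 5 were tested and 1 was lower (20%, against 11.9% of all genes tested). Dusp4, a nuclear phosphatase of ERK and JNK, measured 23.5, 31.2, 20.3 and 17.8 CPM in WT and 4.81, 3.82, 4.43 and 5.21 CPM in db/db, well apart (edgeR log2 fold change -2.33 ± 0.27 SE, adjusted p = 6.39e-06). The immediate early genes Egr1 and Ier3 varied widely within genotypes and did not pass (log2 fold change -0.19 and 0.35, SE 0.63 and 0.32), and that of Egr1 was 1.09 without WT replicate 2.

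Of 9 genes that regulate Fgf21 or Klb or act on the FGF21 protein, 8 were tested, with a median log2 fold change of -0.37. In db/db, 1 (Fap, 12.5%) was higher and 2 (25%) lower, against 15.8% and 11.9% of all genes tested. Ppara, the fatty acid receptor that drives Fgf21 in liver, measured 106.8, 71.7, 67.6 and 130.3 CPM in WT and 15.3, 24.2, 39.5 and 59.5 CPM in db/db (edgeR log2 fold change -1.46 ± 0.31 SE, adjusted p = 0.00165). Its genotypes did not overlap, like those of Klb, and db/db replicate 1, with the most muscle transcript, was the lowest. Ppargc1a, a coactivator of PPARs, fell by 0.79 on the log2 scale (edgeR adjusted p = 0.0158), a call lost without WT replicate 4. Fap, whose protease inactivates FGF21, averaged 3.18 ± 0.886 CPM in WT and 8.28 ± 2.57 CPM in db/db (SD, n = 4 each). It too passed the filter through the db/db libraries alone and is given without a p, and its log2 fold change of 1.38 (SE 0.38) was 0.50 (SE 0.71) with the muscle covariate. Atf4, which encodes a stress-response transcription factor known as a regulator of Fgf21, averaged 182.4 ± 37.8 and 130.7 ± 45.4 CPM and did not pass (edgeR log2 fold change -0.48 ± 0.21 SE, adjusted p = 0.103), but passed in 3 of 17 alternatives, among them without db/db replicate 4. Pparg averaged 88.9 ± 24.5 and 67.8 ± 36.3 CPM and did not pass (edgeR adjusted p = 0.341). It passed as lower in 2 of 17 alternatives, among them without db/db replicate 2 (edgeR log2 fold change -0.82 ± 0.24 SE, adjusted p = 0.0218), and its log2 fold change was 0.83 (SE 0.44) with the muscle covariate.

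**Figure D4:**
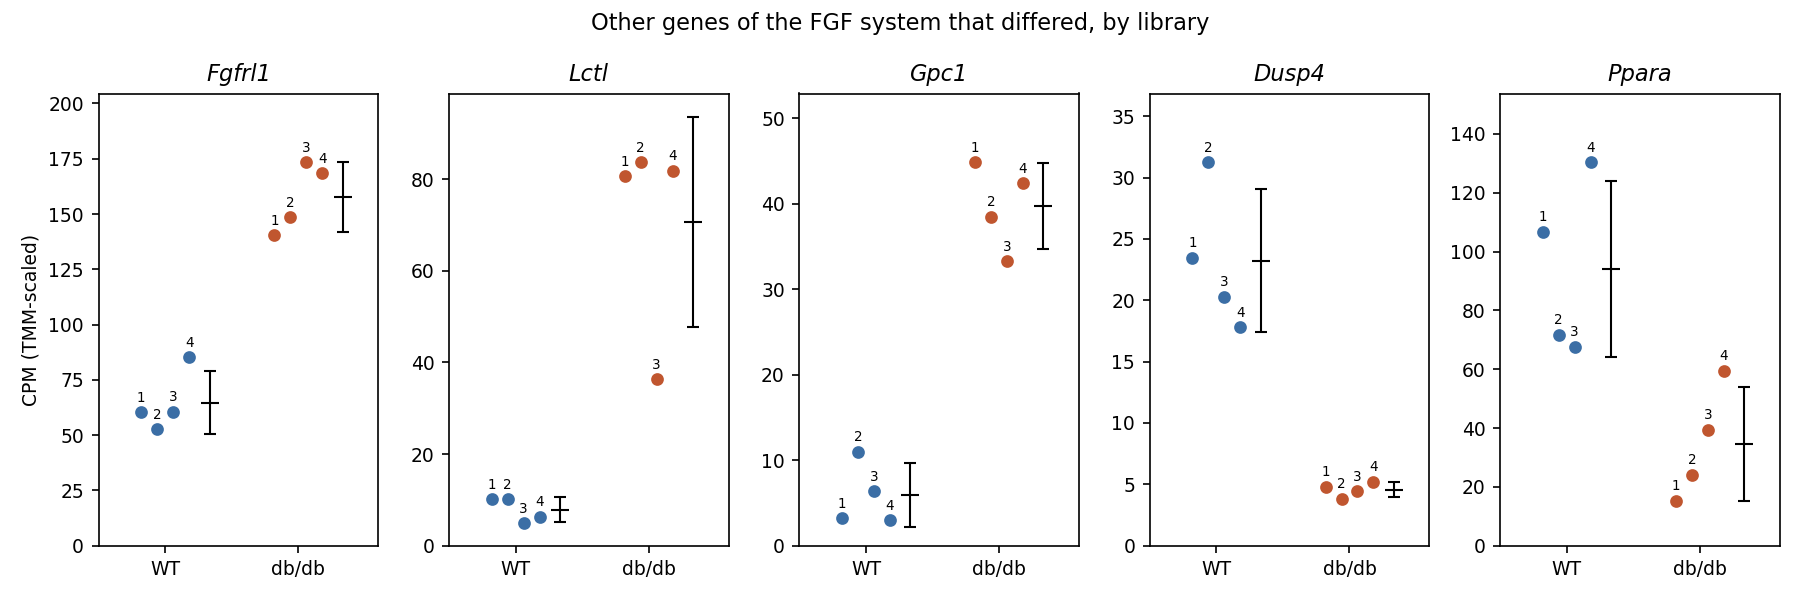
Level of 5 further genes of the FGF system (vertical axes, TMM-scaled CPM, a separate scale in each panel) in the 4 WT (blue) and 4 db/db (orange) libraries, numbered by replicate, with mean and SD as black bars. Fgfrl1, Lctl and Gpc1 are higher and Dusp4 and Ppara lower in every db/db library than in every WT library.

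**Figure D5:**
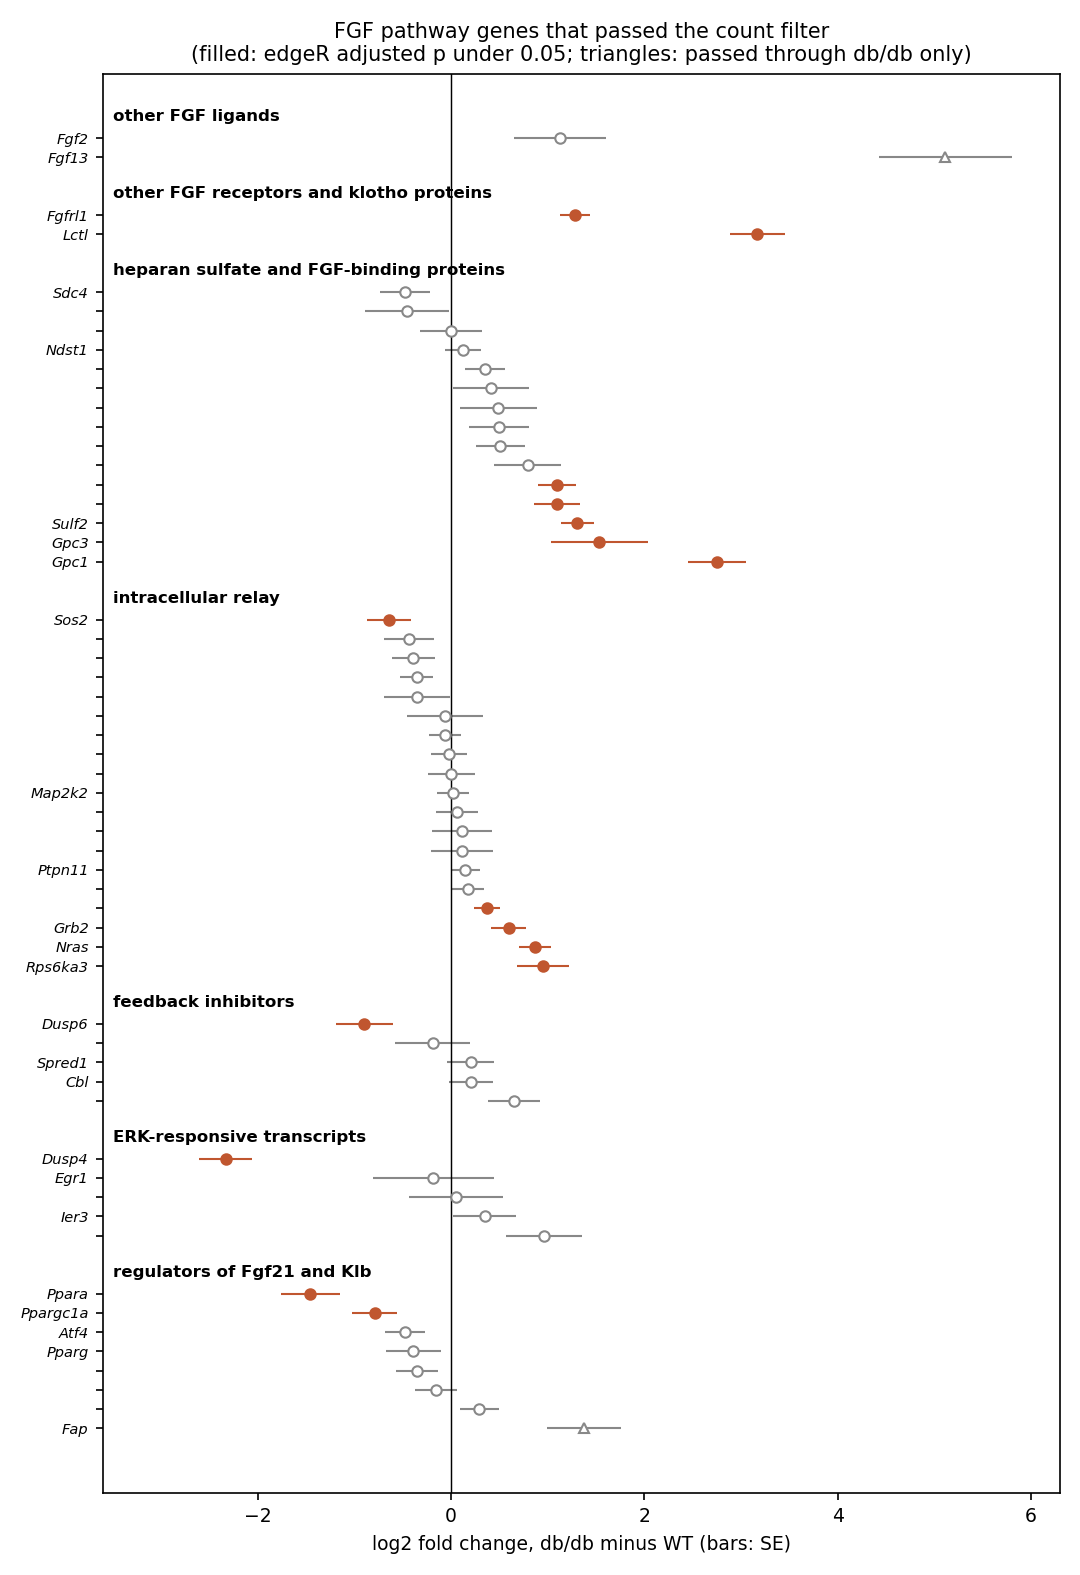
Log2 fold change of db/db over WT with its SE (horizontal axis) for 56 of the 58 genes of the 7 lists that passed the filter, grouped by role, with filled points for an edgeR adjusted p under 0.05, triangles for Fgf13 and Fap, which passed the filter through db/db libraries alone, and labels for the genes named in the text. Of the filled points 11 lie to the right of 0 and 5 to the left, and the fitted value of Fgf13 depends on the prior count.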

How the data were processed

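Total RNA from BAT was made into single-end mRNA libraries by a commercial service. Per the study's methods the authors trimmed reads with bbduk, aligned them to mm10 (STAR) and counted them by gene (HTSeq-count), and the deposited table holds the raw counts. The submitters' processing notes name Trimmomatic and HISAT2 instead, and the difference could not be settled. Strand setting and molecular identifiers are not given in the sources used here, so PCR copies may be included and named genes of the FGF system that share exon bases with others are called uncertain. The deposited normalized values and sample sheet were not used.

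Of 31053 identifiers, 31011 matched GENCODE M21 on GRCm38. Genes were filtered by filterByExpr (minimum count 10, minimum total 15), scaled by TMM and tested for genotype alone by edgeR's quasi-likelihood test (edgeR 4.0.16, R 4.3.3), with Benjamini-Hochberg adjustment at 0.05 over 9264 genes. SEs were derived from the F statistic, and log2 CPM used a prior count of 2. Folds against a group of 3 counts or fewer per library were taken against the mean floor of 3 counts per library. Genes that passed the filter through the genotype in which they were high are given without a p. Floors cover counting error only. Replicates of a genotype differed by more than counting error (lowest chi-square per degree of freedom 3.99). Alternatives were DESeq2 1.42.0, limma-voom (limma 3.58.1), other scalings and filters, the replicate block, a muscle covariate and leaving out each sample. The fit was tested on simulated data. Values of 2 listed genes are not reported here, though they are included in the counts over the lists.

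The members and lists were chosen with earlier results of these data known. Named genes were all members, every other ligand, receptor or klotho gene tested, in each other list up to 3 called genes in each direction by size of change and the 2 most abundant that did not pass, and for each member tested the 3 genes most like it. Fgf9, Fgf10, Fgfr3, Fgfr4 and Kl, and Glce and Mapk3, in each of which 1 library lay far from the other 3, were named after their values were seen.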

Additional observations from a re-analysis of the deposited data

Results flagged for a closer look

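Of 145 groups of 4 libraries examined, in the 5 genes, the pathway genes and the marker sums, 12 held a library far from the other 3. Distance was judged by the gap to the nearest library over the range of the group. At 1 in 20, chance would mark 7.25, but genes and sums are not independent and the difference was not tested. A group with counts in 1 library alone is marked by construction, as with Fgf21 in db/db and the epithelial sum in WT. Among the 5 genes these were Fgfr1 in WT replicate 3, at 50.0 CPM against 29.5 to 32.3 in the others, Fgfr2 in db/db replicate 4, at 2.60 CPM against 0 to 0.443, and Fgf21 in db/db replicate 4, at 0.372 CPM against 0, which rests on 1 count.

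Among pathway genes, Lctl was at 36.3 CPM in db/db replicate 3 against 80.6 to 83.7 in the others, and Glce at 7.09 CPM in the same library against 3.82 to 4.21. The count of Glce is uncertain in so far as 1.13% of its exon bases are shared with Mir5133. Mapk3 was at 131.1 CPM in db/db replicate 2 against 143.6 to 145.3. Rps6ka3 was at 16.1 CPM in WT replicate 4 against 8.50 to 9.39, and Egr1 at 132.5 CPM in WT replicate 2 against 12.3 to 31.9. Among marker sums, the endothelial sum was 244.3 CPM in db/db replicate 1 against 210.6 to 212.3, the lymphocyte sum 6.92 CPM in the same library against 0 to 0.887, the blood sum 17009 CPM in db/db replicate 4 against 6472 to 7024, and the epithelial sum 0.424 CPM in WT replicate 4 against 0. The causes were not tested.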

How the results depend on the processing

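The direction of Klb, Fgfr1, Fgfr2 and Fgf1 was the same under every alternative that gave a value. With the skeletal muscle covariate their log2 fold changes were -0.90 (SE 0.49), 0.21 (SE 0.46), -3.28 and 2.82 (SE 0.51), in that order. Each of these SEs, that of Fgfr2 included, was larger than without the covariate. Without single libraries, the log2 fold change ran from -1.25 to -0.89 for Klb, from 0.40 to 0.76 for Fgfr1, from -5.84 to -3.17 for Fgfr2 and from 2.57 to 3.20 for Fgf1, calls over all genes from 2236 to 2483, and pathway calls from 10 to 13 higher and from 3 to 5 lower, the 3 being reached without WT replicate 4 and without db/db replicate 3. A prior count of 2 gave -2.77 for Fgfr2, which has few counts in db/db. The skeletal muscle covariate, which differs between the genotypes, left 410 calls of 2568 over all genes, and 4 higher, Fgf13 among them, and 1 lower in the pathway, and a filter of 1 count in any library gave 8 lower, with Pparg, Sdc4 and Atf4 added. The cause was not tested. With the replicate block the log2 fold changes were -1.07, 0.55, -3.75 and 2.88 for Klb, Fgfr1, Fgfr2 and Fgf1, with 2557 calls over all genes and 13 higher and 5 lower in the pathway, with the Dusp6 call lost and Atf4 gained as lower. The numbers share no animal or stated batch, deviations of same-numbered samples correlated between -0.08 and 0.05, and 3 of 8 samples correlated best with their own number. No other alternative moved 1 of these counts by over 1.5 times. No fold is given for Fgf21 under any setting, since it had at most 1 count in a library. Depth limits Fgf21 and, in db/db, Fgfr2, which lie at or under the floor in most libraries. Fgfr2 and Fgf1 could not be fitted with at least 10 counts in every sample.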
